A study of Mus musculus with 2 samples.

Results

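Hypoxic glioma cells are described here as 138 EGFP-expressing cells of 32898 barcodes in 2 single-cell libraries, 34 cells of tumour 1 and 104 cells of tumour 2. They were chosen on RNA, not on a measured oxygen level. A member had at least 500 genes and under 20% of its UMIs (unique molecular identifiers, 1 per captured RNA molecule) from mitochondrial genes, at least 20 EGFP UMIs per 10000 mouse-gene UMIs, and at least 5 per 10000, with at least 3 UMIs, of Vegfa, Adm, Hilpda, Egln3 and Ankrd37 summed. It also had under 10 per 10000 of 6 mitotic genes summed (Mki67, Top2a, Ube2c, Aspm, Prc1 and Cenpf), under 5 per 10000 of C1qa, C1qb and C1qc summed, and no UMI of Cd3d, Cd3e or Cd3g. The comparison cells, called low-sum cells, met the same limits except that the sum of the 5 genes was under 1 per 10000. There were 8484 of them, 5229 in tumour 1 and 3255 in tumour 2, and a further 1239 and 1169 cells lay between the classes.

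Both tumours were NPCTKO glioblastomas (GBM) of C57BL/6 mice aged 3 months. In this model, neocortical precursors of the embryo receive by electroporation a transposon that carries Cas9, luciferase and guides against tumour suppressors, Trp53 and Nf1 among them, with an EGFP label that their progeny keep. Hypoxic and low-sum cells came from the same electroporated animals and differ by no treatment, and the edits carried by single cells were not analysed here. Per the study's methods 1 host was Tek-Cre;Ai14 and the other Tbx18CreERT2/+;Ai14. The labels do not say which library is which, and with 1 animal each the tumours can be set side by side but not tested against each other.

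Cells sense low oxygen through enzymes that need it. When oxygen is present, the prolyl hydroxylases of the Egln family mark the alpha subunits of the hypoxia-inducible factors (HIF) for destruction by the Vhl ubiquitin ligase. When oxygen is scarce the subunits persist, pair with Arnt, and bind DNA at a short element with the core ACGTG near genes of glucose uptake, glycolysis, lactate export, mitophagy and blood vessel growth. In glioblastoma this programme is known from cells around necrotic areas and far from working vessels.

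The EGFP threshold took in some cells of other types. Among barcodes with at least 3 UMIs of the Cd3 genes, 22.1% in tumour 1 and 18.1% in tumour 2 reached the EGFP limit, and among barcodes with at least 20 C1q UMIs per 10000 it was 29.1% and 45.8%. The label of the hypoxic cells was checked with glial genes, which barcodes of other types also held at a lower share. At least 3 UMIs of Sox2, Olig2, Olig1, Ptprz1 and Nes together were found in 34 of 34 hypoxic cells of tumour 1, against 96.9% of low-sum cells, and in 91 of 104 (87.5%) of tumour 2, against 95.6% of low-sum cells. The same was true of 54.4% and 52.0% of the barcodes with Cd3 UMIs and 60.5% and 50.3% of those with C1q UMIs, at median depths of 12686 and 8988 and of 18151 and 9807.5 UMIs. Sox2 itself stood at 230.0 CPM (counts per 1000000 mouse-gene UMIs) in the summed hypoxic cells of tumour 1 and 187 CPM in those of tumour 2, against 229 and 278 CPM in low-sum cells.

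A few hypoxic cells carried the marker genes of other types. With 10 or more UMIs per 10000 of immune, vascular or mature oligodendrocyte markers as the limit, 3 hypoxic cells of tumour 1 counted as vascular, and in tumour 2 10 counted as immune and 3 as vascular. A further limit of 50000 UMIs touched 5 hypoxic cells in each tumour. Cells past any of these limits, the depth limit included, are called cells of other types below, although a deep cell need not be one. These limits were set after seeing the data, and they left 27 hypoxic cells in tumour 1 and 87 in tumour 2 (20.6% and 16.3% left out), with 4691 and 2876 low-sum cells. The summed endothelial markers were at 1645 and 214 CPM in the hypoxic cells of tumours 1 and 2, against 27.0 and 13.8 CPM in low-sum cells, while the median cell of both classes held none. Without the cells of other types they were at 26.8 and 12.6 CPM, against 10.0 and 12.9 CPM. Summed neutrophil and monocyte markers reached 636 CPM in the hypoxic cells of tumour 2, against 116 CPM in low-sum cells, and 36.3 against 44.0 CPM without those cells. Genes of both marker groups served to leave those cells out, so these falls follow from the limits themselves. Many results below are therefore given with and without them where the 2 versions differ, but some list counts and gene levels are given with all cells only. Beyond those values the part of the other cell types was not tested.

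Hypoxic cells were somewhat shallower. The median hypoxic cell held 14983 UMIs in tumour 1 and 15072.5 in tumour 2, against 19079 and 17175 in low-sum cells. Median mitochondrial shares were 4.04% and 5.51% in hypoxic cells, against 5.07% and 4.56%. The 2 libraries shared 51 cell barcodes, none of them of a hypoxic cell.

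Hypoxic cells were rare in both tumours. They made up 0.366% of the EGFP cells of tumour 1 (34 of 9287, exact Clopper-Pearson 95% interval 0.254 to 0.511%) and 1.07% of those of tumour 2 (104 of 9745, 0.873 to 1.29%). Intervals of this kind cover counting error only. Those EGFP cells include cells past the mitotic, C1q or Cd3 limits, which could not be members. Among EGFP cells within these limits the shares were 0.523% (34 of 6502) and 2.30% (104 of 4528). The sum did not leave a gap at its limit: the 3 hypoxic cells nearest to it had 5.14, 5.15 and 5.25 per 10000 in tumour 1 and 5.003, 5.01 and 5.05 in tumour 2, and the 3 nearest cells outside had 4.99, 4.89 and 4.88, and 4.99, 4.93 and 4.92. The limits on other classes removed further EGFP cells with a high sum. In tumour 2, 68 of the 186 EGFP cells with a high sum exceeded the C1q limit, 20 the mitotic limit and 13 held a Cd3 UMI, and in tumour 1 the numbers were 6, 3 and 3 of 44. A high sum was not particular to EGFP cells, since 8.56% and 2.57% of the barcodes with Cd3 UMIs and 1.80% and 5.54% of those with C1q UMIs had one.

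The 5 genes that define the class are given as a description. Vegfa, the growth factor that draws blood vessels towards a tissue, was the largest contributor to the sum in both tumours. It stood at 478 and 368 CPM in the hypoxic cells of tumours 1 and 2, against 11.3 and 8.32 CPM in low-sum cells, was detected in 94.1% and 89.4% of hypoxic cells, and was the leading gene of the sum in 26 of 34 and 57 of 104. Adm encodes adrenomedullin, a peptide that widens vessels, and was at 231 and 133 CPM in hypoxic cells, against 1.06 and 1.69 CPM. Ankrd37, an ankyrin repeat protein known as a HIF target, was at 90.1 and 103 CPM, against 2.83 and 2.70 CPM. At all 3 genes the hypoxic sums of both tumours lay above both low-sum sums.

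The remaining pair of rule genes differed more between tumours. Hilpda, a protein of lipid droplets that restrains the breakdown of stored fat, was at 51.9 CPM in the hypoxic cells of tumour 1 and 199.7 CPM in those of tumour 2, against 16.0 and 19.0 CPM in low-sum cells. Egln3, one of the oxygen-sensing prolyl hydroxylases, was at 30.7 and 154 CPM, against 3.67 and 4.04 CPM. Part of these levels came from few cells: the 3 vascular cells of tumour 1 held 64.7% of its Adm UMIs and 40% of its Ankrd37 UMIs in hypoxic cells, and the 10 immune cells of tumour 2 held 35.9% of its Hilpda UMIs. With cells of other types left out, Adm was at 99.9 and 163 CPM in hypoxic cells, against 0.946 and 1.76 CPM, and Hilpda at 68.2 and 135 CPM, against 15.8 and 18.1 CPM.

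Most hypoxic cells had several of the 5 genes at once. All 5 were detected in 3 cells of tumour 1 and 25 cells of tumour 2, and only 1 of them in 4 cells of each tumour. When cells were picked again by the same limits on the sum of the other 4 genes, each left-out gene was higher in the picked cells than in their low-sum counterparts in both tumours. The ratio was 77.9 and 34.4 for Adm, 19.96 and 19.3 for Ankrd37, 8.95 and 13.1 for Vegfa, 4.84 and 21.0 for Egln3, and 1.53 and 3.02 for Hilpda. Hilpda thus followed the other genes least, and it was also the rule gene with the highest level in the barcodes with Cd3 UMIs, at 126 and 91.7 CPM.

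The HIF core was looked for in the promoters of these genes and of other members of the response. The letters searched were ACGTG on both strands of the 250 bases before each RefSeq start on GRCm38.p6. Of all 32851 promoters 16.6% held the core, and of 27025 genes 18.5% held it in at least 1 promoter. It was present for 4 of the 5 rule genes, with Adm the exception. The promoters of Egln3, Ankrd37, Bnip3 (a mitophagy receptor) and Slc2a1 (the glucose transporter GLUT1) are shown because the first pair defines the class and the other pair are genes the rule did not use. Each sequence runs 5′ to 3′ on the strand of its gene, and capitals mark the core. For Bnip3 the capitals CACGTG read the same on both strands and hold the core on each. The windows of 250 bases lie on minus-strand chr12:54203875-54204124 for Egln3, minus-strand chr8:45999851-46000100 for Ankrd37, minus-strand chr7:138909507-138909756 for Bnip3 and plus-strand chr4:119108495-119108744 for Slc2a1.
Egln3: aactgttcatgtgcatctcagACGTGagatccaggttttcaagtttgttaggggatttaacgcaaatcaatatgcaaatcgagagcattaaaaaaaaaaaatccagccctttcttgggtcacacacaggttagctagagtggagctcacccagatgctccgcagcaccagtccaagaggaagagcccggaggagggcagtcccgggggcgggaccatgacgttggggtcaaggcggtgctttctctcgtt
Ankrd37: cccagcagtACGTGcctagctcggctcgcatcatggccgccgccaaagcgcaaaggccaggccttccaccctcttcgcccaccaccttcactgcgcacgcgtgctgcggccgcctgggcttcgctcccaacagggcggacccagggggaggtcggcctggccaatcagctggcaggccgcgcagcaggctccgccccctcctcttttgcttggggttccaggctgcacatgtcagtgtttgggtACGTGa
Bnip3: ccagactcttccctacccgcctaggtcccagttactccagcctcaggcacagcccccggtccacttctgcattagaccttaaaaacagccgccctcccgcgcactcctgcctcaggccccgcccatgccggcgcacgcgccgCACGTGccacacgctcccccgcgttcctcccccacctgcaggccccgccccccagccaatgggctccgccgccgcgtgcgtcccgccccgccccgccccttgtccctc
Slc2a1: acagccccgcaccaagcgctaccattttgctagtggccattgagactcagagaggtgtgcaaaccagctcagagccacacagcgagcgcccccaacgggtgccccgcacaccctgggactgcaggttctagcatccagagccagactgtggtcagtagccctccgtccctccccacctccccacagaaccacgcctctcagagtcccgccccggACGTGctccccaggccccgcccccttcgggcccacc

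The core began 229 bases before the start for Egln3, 241 and 6 bases for Ankrd37, 107 bases for Bnip3 and 36 bases for Slc2a1. Of the glucose uptake and glycolysis genes with a promoter entry, 9 of 19 held the core, among them Ldha, Pgk1 and Hk2. It was also present for 4 of 6 mitophagy genes, 5 of 12 nuclear genes of oxidative phosphorylation and 1 of 16 interferon genes. Over all genes that rose in hypoxic cells (defined below) 23.9% of 518 held it, and over all that fell 22.3% of 282. A match of 5 letters is a description of the sequence and no evidence of binding, and the shares of the risen and fallen genes were close.

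To ask which other genes went with the sum, UMIs were summed over hypoxic cells and over low-sum cells of each tumour, and the 4 sums were compared with edgeR's quasi-likelihood test with tumour as a block and Benjamini-Hochberg adjustment. Of 15159 genes tested, 714 were higher in hypoxic cells (4.71% of genes) and 368 were lower (2.43%) at an adjusted p under 0.05. Without cells of other types, 376 were higher (2.57% of 14617) and 284 lower (1.94%), of which 294 and 169 were also called with all cells. The median log2 fold change of all genes was -0.08. The 4 sums leave 1 residual degree of freedom beside the spread pooled over genes, and p-values measure cells of the same 2 libraries. The pooled spread weighed as 38.5 degrees of freedom with all cells, and its weight was infinite without cells of other types. In the latter fit no gene's own spread entered its p-value. Without the block edgeR called 0 genes, with 716 at an unadjusted p under 0.05, and DESeq2 with the block called 466 higher and 94 lower.

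Glucose uptake and glycolysis rose almost as a whole. Of 20 genes of the pathway 17 were higher in hypoxic cells and none lower, with a median log2 fold change of 1.96 over the list, against -0.08 over all genes tested. The 17 calls and the median (2.05) were nearly the same without cells of other types. Slc2a1, which brings glucose into the cell, was at 228 and 540.1 CPM in the hypoxic cells of tumours 1 and 2, against 9.03 and 33.2 CPM in low-sum cells (edgeR adjusted p 1.02e-17, with a log2 fold change of 4.29 and, after ±, its standard error, 0.23). Slc2a3, the high-affinity transporter GLUT3, was at 94.3 and 108 CPM, against 20.9 and 9.78 CPM (2.80 ± 0.27). The hypoxic sums of both transporters lay above both low-sum sums. With cells of other types left out, Slc2a1 was at 124 and 629 CPM in hypoxic cells, against 6.67 and 32.2 CPM. The 7 hypoxic cells left out of tumour 1 held 76.3% of its UMIs there. Those of 50000 or more UMIs held 60.9% and the vascular ones 24.7%, as overlapping groups.

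The enzymes followed in the same direction. Hexokinase Hk2, the first step, was at 57.2 and 62.6 CPM in hypoxic cells, against 12.5 and 12.4 CPM in low-sum cells (2.23 ± 0.26). Glucose phosphate isomerase Gpi1 was at 583 and 1250.0 CPM, against 137 and 207 CPM (2.31 ± 0.20). Triose phosphate isomerase Tpi1 was at 479 and 1778 CPM, against 105 and 276 CPM (2.40 ± 0.20). At each of these enzymes both hypoxic sums lay above both low-sum sums.

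Lactate dehydrogenase Ldha, which regenerates NAD by turning pyruvate into lactate, was at 848 and 1778 CPM in hypoxic cells, against 228 and 429 CPM (1.93 ± 0.19). Gapdh was at 2749.6 and 8049.6 CPM, against 872 and 1726 CPM (1.90 ± 0.19), and Pgk1 at 125 and 386 CPM, against 36.5 and 101 CPM (1.82 ± 0.21). Gapdh and Ldha have processed pseudogene copies, so some of their reads may have been assigned elsewhere. The 3 members that did not pass were isoforms: Pfkm (35.0 and 40.1 CPM in hypoxic cells, against 31.7 and 30.8 CPM), Pfkfb4 (5.30 and 4.82, against 4.15 and 4.21 CPM) and the brain aldolase Aldoc (183 and 418, against 193 and 325 CPM). Their sister genes Pfkl, Pfkp, Pfkfb3 and Aldoa were higher.

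Fewer glycolysis calls were made against a small set of low-sum cells. With 1 low-sum cell matched to each hypoxic cell on total UMIs, 6 of 19 genes passed with a median of 1.80, and with other cell types left out and matching on UMIs and glial state 13 of 19 passed with a median of 2.08.

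**Figure D1:**
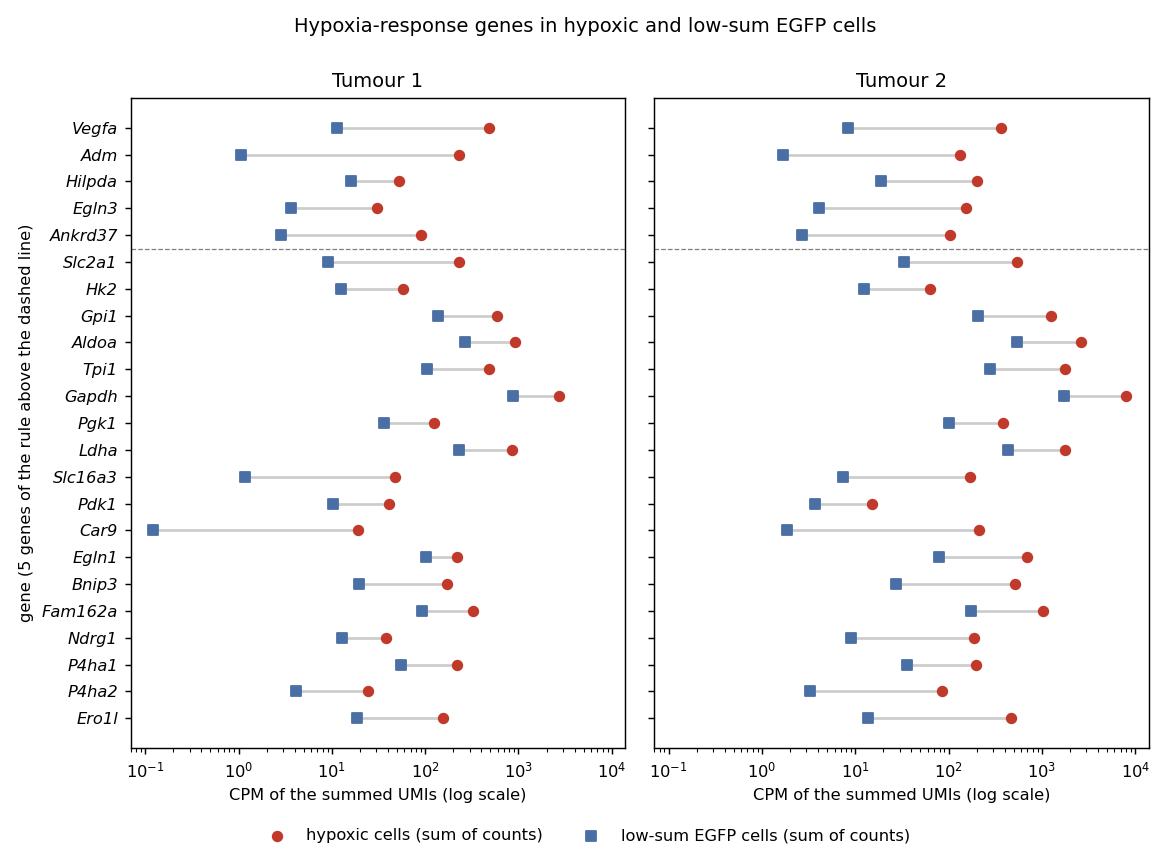
Levels of the 5 rule genes (above the dashed line) and 18 other genes in hypoxic cells (red circles) and low-sum EGFP cells (blue squares) of tumour 1 and tumour 2, as CPM of the summed UMIs on a log axis. In every row and both tumours the hypoxic sum lies to the right, from Car9 with 19.1 against 0.121 CPM in tumour 1 to Gapdh with 8049.6 against 1726 CPM in tumour 2.

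The shift was visible in single cells. The 20 glycolysis genes together had a median of 65.1 UMIs per 10000 in the hypoxic cells of tumour 1, with a range of 18.2 to 164, against 27.8 in low-sum cells. In tumour 2 the median was 207, with a range of 19.0 to 710.4, against 47.6. The hypoxic median was reached by 1.76% of low-sum cells in tumour 1 (92 cells) and 0.307% in tumour 2 (10 cells). The lowest hypoxic cells of both tumours lay below the low-sum median, so the classes overlapped.

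**Figure D2:**
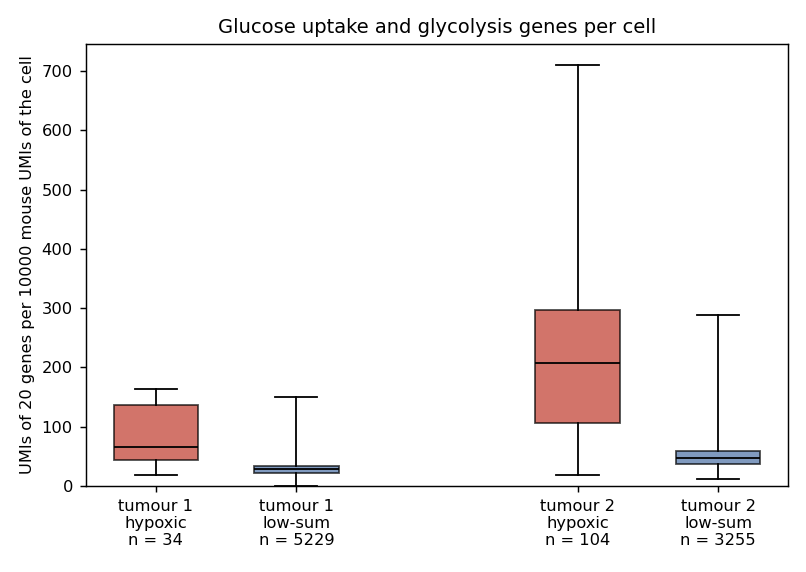
Summed UMIs of the 20 glucose uptake and glycolysis genes per 10000 mouse-gene UMIs of each cell, by tumour and class; boxes span the quartiles with the median as a line, and whiskers reach the lowest and highest cell. Median values are 65.1 in hypoxic and 27.8 in low-sum cells of tumour 1, and 207 and 47.6 in those of tumour 2.

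Slc2a1 and Bnip3 were often found in the same hypoxic cell. Both were detected in 44.1% of hypoxic cells of tumour 1 and 70.2% of tumour 2, against 5.89% and 14.3% of low-sum cells. After thinning every cell to 5000 UMIs, Slc2a1 was found in 47.1% and 64.8% of hypoxic cells, against 3.67% and 11.9% of low-sum cells and 9.76% and 10.6% of the barcodes with Cd3 UMIs, and 14.0% and 21.2% of those with C1q UMIs (unthinned 58.8% and 76.9%, against 13.7% and 30.8% in low-sum cells). Thinning left out no hypoxic cell of tumour 1 and 13 of tumour 2, with 465 and 358 low-sum cells. At neither gene did all hypoxic cells have a UMI, and 23.5% and 14.4% had neither, at median depths of 10286.5 and 7915 UMIs.

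Genes that move the products of glycolysis were few but large in change. Of 12 genes of pyruvate, lactate and acid handling, 3 were higher and 1 lower, with a median log2 fold change of 0.42. Car9, a carbonic anhydrase of the outer cell surface that handles exported acid, was at 19.1 and 212 CPM in hypoxic cells, against 0.121 and 1.88 CPM in low-sum cells (6.91 ± 0.32, adjusted p 4.69e-20). After thinning it was found in 8.82% and 47.3% of hypoxic cells (unthinned 17.6% and 49.0%), against 0.0210% and 0.967% of low-sum cells and 0% and 0.912% of the barcodes with Cd3 UMIs. In the barcodes with C1q UMIs it was found in 2.32% and 3.55% (unthinned 9.09% and 9.70%). The 1 hypoxic cell with most Car9 held 38.9% of its UMIs in tumour 1 and 6.31% in tumour 2.

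Slc16a3, the lactate exporter MCT4, was at 47.7 and 171 CPM in hypoxic cells, against 1.17 and 7.34 CPM (4.84 ± 0.27). Pdk1, a kinase that shuts pyruvate out of the mitochondrion, was at 41.3 and 14.99 CPM, against 10.4 and 3.66 CPM (1.97 ± 0.34). Ldhb, the lactate dehydrogenase subunit of oxidative tissue, was at 232 and 216 CPM, against 313 and 356 CPM (-0.62 ± 0.20, adjusted p 0.0466), and lost that call without cells of other types (-0.44 ± 0.23, adjusted p 0.376). The transporter Slc16a1 (MCT1) did not pass, at 43.5 and 30.5 CPM, against 29.7 and 15.1 CPM.

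Among 9 genes of oxygen sensing itself, 2 were higher in hypoxic cells and none lower, with a median of 0.39. Egln1, the main oxygen-sensing prolyl hydroxylase of most cells, was at 222 and 701 CPM, against 102 and 79.5 CPM (2.12 ± 0.28, adjusted p 3.25e-07). Epas1, which encodes HIF-2 alpha, was at 99.6 and 18.2 CPM, against 19.5 and 10.7 CPM (1.58 ± 0.31), and at 77.9 and 13.3 CPM, against 18.7 and 12.4 CPM, without cells of other types (1.09 ± 0.33). The RNA of Hif1a, whose protein is set by oxygen rather than by transcription, did not pass, at 78.4 and 117 CPM in hypoxic cells, against 69.2 and 81.8 CPM (0.32 ± 0.21, adjusted p 0.479). Vhl and Hif1an did not pass with all cells. Vhl was higher without cells of other types (1.19 ± 0.31, adjusted p 0.00535).

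Mitochondrial genes split by their role. Of 10 genes of mitophagy and of the mitochondrial response to low oxygen, 6 were higher and none lower, with a median of 1.42. Bnip3, a receptor that marks mitochondria for autophagy, was at 169.6 and 509.6 CPM in hypoxic cells, against 19.6 and 27.2 CPM (3.65 ± 0.24, adjusted p 7.11e-15). Its relative Bnip3l was at 259 and 292 CPM, against 140.4 and 107 CPM (1.13 ± 0.21). Fam162a was at 329 and 1021 CPM, against 91.7 and 176 CPM (2.16 ± 0.21), and Higd1a, a protein of the respiratory complexes, at 403 and 902 CPM, against 154 and 208 CPM (1.72 ± 0.21).

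Both isoform genes of the respiratory chain on the list were higher, with much of their UMIs in single cells except for Ndufa4l2 in tumour 2. Ndufa4l2 was at 26.5 and 140.3 CPM in hypoxic cells, against 1.17 and 5.25 CPM (4.60 ± 0.29). In tumour 1, 1 cell held 96.0% of its UMIs, and without cells of other types the level there was 2.44 CPM, against 1.07 CPM in low-sum cells. In tumour 2 it was detected in 27 hypoxic cells (25.96%), against 6.11% of low-sum cells. Cox4i2 was at 19.1 and 17.1 CPM, against 1.85 and 1.16 CPM (3.59 ± 0.52), with 61.1% and 81.2% of its UMIs in 1 cell of each tumour. Of 16 nuclear genes of oxidative phosphorylation none was higher and 3 were lower (Ndufa4, Sdhb and Atp5a1), with a median of -0.44, and 15 of the 16 were lower in both tumours taken alone. Sdhb, a subunit of succinate dehydrogenase, was at 126 and 201 CPM in hypoxic cells, against 158 and 386 CPM (-0.69 ± 0.21, adjusted p 0.0339), and alone kept its call without cells of other types (-0.80 ± 0.24, adjusted p 0.0262).

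Of 12 regulators known as HIF targets, 8 were higher and none lower, with a median of 1.09. Ndrg1, a stress and differentiation gene, was at 38.2 and 189 CPM in hypoxic cells, against 12.7 and 9.06 CPM (3.11 ± 0.36). The increase in tumour 1 rested on few cells, since 1 cell held 58.3% of the UMIs and the level without cells of other types was 7.31 CPM, against 8.53 CPM. Ddit4, an inhibitor of mTOR, was at 57.2 and 61.6 CPM, against 25.7 and 19.1 CPM (1.39 ± 0.26).

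The repressors Bhlhe40 and Bhlhe41 were higher by 1.11 ± 0.21 and 1.11 ± 0.26, the histone demethylase Kdm3a by 1.29 ± 0.30 and the nuclear receptor Rora by 1.30 ± 0.23. All 4 kept the call without cells of other types. Their hypoxic sums lay above both low-sum sums, for example 97.5 and 65.8 CPM of Rora in hypoxic cells, against 38.2 and 26.3 CPM.

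Secreted signals to vessels and tissue divided into those that kept and those that lost their call when cells of other types were left out. Of 19 genes of this list 14 were higher with all cells (median 2.11), but 7 of 18 without cells of other types (median 0.75). Apln, the ligand of the apelin receptor, was at 241 and 20.3 CPM in hypoxic cells, against 1.92 and 0.961 CPM (5.85 ± 0.38), and at 14.6 and 25.8 CPM, against 1.67 and 1.02 CPM, without cells of other types (4.02 ± 0.67, adjusted p 2.71e-07). Igfbp5, a binding protein of insulin-like growth factors, was at 257 and 218 CPM, against 30.7 and 41.2 CPM (2.69 ± 0.22), and kept its call at 2.33 ± 0.25. Igfbp3 and Stc1 kept theirs too, at 1.18 ± 0.25 and 3.02 ± 0.92.

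The next 2 signals did not keep the call. Angpt2, which loosens vessels and is made by endothelium, was at 273 and 10.2 CPM in hypoxic cells, against 4.65 and 2.50 CPM (4.30 ± 0.47), with 67.1% of its UMIs in 1 cell of tumour 1. With the other types left out it was at 4.87 and 2.09 CPM, against 4.501 and 2.65 CPM. Edn1, the vasoconstrictor endothelin-1, was at 31.8 and 3.21 CPM in hypoxic cells, against 0.139 and 0.290 CPM (5.84 ± 1.03), and held too few UMIs to be tested without cells of other types.

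Genes that fold and modify procollagen rose in both versions. Of 12 genes of matrix and procollagen modification 10 were higher and none lower (median 2.13), and 8 were higher without cells of other types (median 1.45). Ero1l (Ero1a), the oxidase that makes disulfide bonds in the endoplasmic reticulum, was at 154 and 463 CPM in hypoxic cells, against 18.6 and 13.8 CPM (4.05 ± 0.30). P4ha1 and P4ha2 encode subunits of the collagen prolyl hydroxylase. P4ha1 was at 218 and 198 CPM, against 54.8 and 35.6 CPM (2.20 ± 0.21), and P4ha2 at 24.4 and 85.1 CPM, against 4.15 and 3.25 CPM (3.74 ± 0.37). Loxl2, a collagen cross-linking oxidase, was higher by 3.28 ± 0.41.

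Fibronectin Fn1 was at 422 and 62.6 CPM in hypoxic cells, against 9.59 and 6.59 CPM (4.37 ± 0.31), and at 85.3 and 51.6 CPM, against 6.72 and 5.76 CPM, without cells of other types (3.36 ± 0.30). The vessel basement membrane collagen Col4a2 was higher with all cells (2.69 ± 0.31) and not without them (0.24 ± 0.39, adjusted p 0.894).

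Signs of protein-folding and amino-acid stress were present but partial. Of 14 genes of the unfolded protein and integrated stress response 6 were higher and none lower, with a median of 0.60. Ddit3 (CHOP), a transcription factor of prolonged stress, was at 108 and 463 CPM in hypoxic cells, against 52.8 and 118 CPM (1.49 ± 0.22). Trib3 was at 14.8 and 32.7 CPM, against 2.37 and 5.78 CPM (2.52 ± 0.38), and Atf4, the factor upstream of both, at 189 and 489 CPM, against 106 and 253 CPM (0.86 ± 0.20). Of 12 genes known to respond to tissue dissociation, 6 were higher with all cells (median 0.54) and 2 without cells of other types (median 0.34). With all cells 11 of the 12 lay above the low-sum level in both tumours. Their summed level was 6653 and 7701 CPM in hypoxic cells, against 5198 and 5997 CPM. Fos (1829.6 and 1027 CPM in hypoxic cells, against 1439 and 789.6 CPM) and Jun (1345 and 1716, against 1109 and 1654 CPM) did not pass.

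Metallothioneins, small metal-binding proteins, were looked at after their values were seen. Mt1 was at 932 and 4617 CPM in hypoxic cells, against 518 and 1184 CPM (1.37 ± 0.21, adjusted p 9.89e-06), and at 1349.5 and 5367 CPM, against 449.8 and 1224 CPM, without cells of other types (1.82 ± 0.23). Mt2 was higher by 1.39 ± 0.20. The brain form Mt3 did not pass, at 622 and 972 CPM, against 743 and 638 CPM. Lipid genes moved little as a list, with 2 of 14 higher and 1 lower. The lipid droplet coat gene Plin2 was at 67.8 and 229 CPM in hypoxic cells, against 31.6 and 74.6 CPM (1.34 ± 0.22), the lipoprotein receptor Vldlr was higher by 1.78 ± 0.24, and the fatty-acid binding protein of neural progenitors Fabp7 fell to 1554 and 864 CPM, against 2279.6 and 1929 CPM (-0.90 ± 0.19).

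Brakes of the cell cycle were higher while DNA replication genes were not. The rule had already set aside mitotic cells in both classes. Of 11 brake genes 6 were higher and 1 lower, with a median of 0.82. Cdkn1a (p21), an inhibitor of cyclin-dependent kinases, was at 304 and 485 CPM in hypoxic cells, against 23.0 and 82.1 CPM (3.09 ± 0.24), and at 70.6 and 501 CPM, against 20.1 and 81.4 CPM, without cells of other types. Cdkn2b (p15) was at 126 and 81.9 CPM, against 27.1 and 34.6 CPM (1.68 ± 0.24), and the imprinted inhibitor Cdkn1c was at 20.1 and 106 CPM, against 76.1 and 252 CPM (-1.54 ± 0.23).

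None of 18 genes of S-phase entry and replication passed with all cells (median -0.38). With the other types left out 4 were lower, each a subunit of the replicative helicase: Mcm3, Mcm4, Mcm5 and Mcm6, with log2 fold changes of -1.51, -1.49, -1.19 and -1.53. Mcm3 was then at 14.6 and 13.3 CPM in hypoxic cells, against 36.3 and 39.5 CPM.

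Mesenchymal-state genes, which are known to mark a wound-like state of glioblastoma cells and are also expressed by vascular and immune cells, were partly higher in both versions. Of 17 genes 12 were higher with all cells (median 1.31) and 7 without cells of other types (median 0.77). Lgals3 (galectin-3) was at 106 and 821 CPM in hypoxic cells, against 16.1 and 64.7 CPM (3.18 ± 0.23). In tumour 1, 1 cell held 69.0% of its UMIs and the level without cells of other types was 7.31 CPM, against 10.8 CPM, whereas in tumour 2 it was 871 CPM, against 48.4 CPM. Anxa2 (annexin A2) was at 217 and 270.3 CPM, against 41.2 and 77.8 CPM (2.05 ± 0.21), and Cd44, a hyaluronan receptor, at 104 and 69.1 CPM, against 38.7 and 23.2 CPM (1.46 ± 0.23). Both kept the call without cells of other types, at 1.29 ± 0.26 and 0.99 ± 0.28, while Lgals1, Emp1 and Anxa1 did not. With every cell that held 2 UMIs of another type's markers left out, which kept 11 and 7 hypoxic cells, the median of the list was -0.57.

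**Figure D3:**
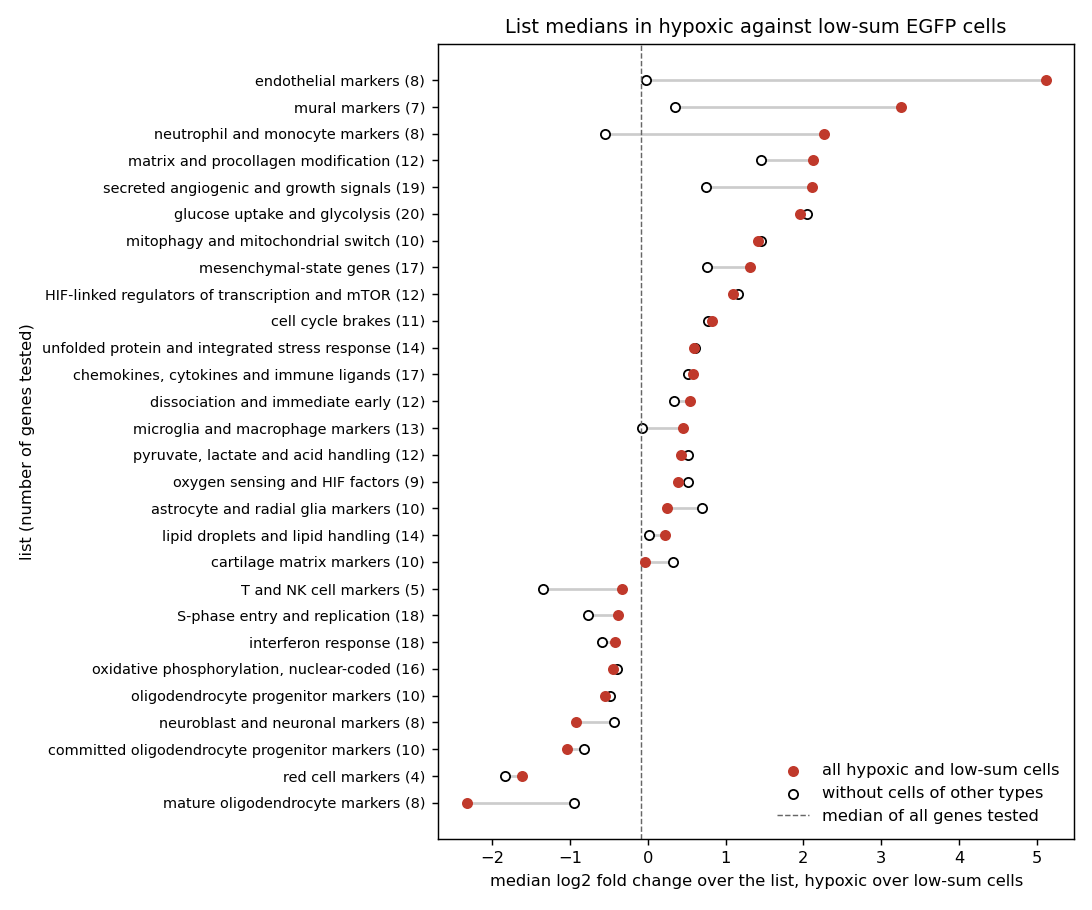
Median log2 fold change, hypoxic over low-sum EGFP cells, of each gene list with the number of genes tested in brackets; red circles are all cells, open circles the fit without cells of other types, and the dashed line the median of all genes tested (-0.08). Glycolysis stays at 1.96 and 2.05, whereas the endothelial list lies at 5.11 with all cells and at -0.03 without cells of other types, whose markers were used to leave those cells out.

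Genes of oligodendrocyte commitment were lower in hypoxic cells. Of 10 markers of committed progenitors 7 were lower and none higher (median -1.04), and 4 of 10 without cells of other types. Bcas1, a gene of early myelinating cells, was at 121 and 170.2 CPM in hypoxic cells, against 504 and 517 CPM (-1.86 ± 0.21, adjusted p 9.77e-09). Gpr17, the receptor that marks the committed stage, was at 46.6 and 21.4 CPM, against 192 and 59.7 CPM (-1.81 ± 0.24). Bmp4 was lower by -1.82 ± 0.36 on the log2 scale.

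Of 10 markers of oligodendrocyte progenitors 4 were lower and none higher (median -0.55). Olig1 was at 519 and 410.1 CPM in hypoxic cells, against 1077 and 1029 CPM (-1.23 ± 0.19), and the proteoglycan Vcan at 372 and 71.2 CPM, against 775 and 154 CPM (-1.12 ± 0.20). Olig2 lost its call without cells of other types (-0.94 ± 0.20 with all cells, -0.53 ± 0.23 without, adjusted p 0.239). Pdgfra, the receptor of the progenitor stage, did not pass, at 265 and 75.5 CPM, against 295 and 126 CPM.

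Astrocyte and radial glia markers gained calls only without cells of other types. None of 10 passed with all cells, with a median of 0.24. Without cells of other types 4 were higher, with a median of 0.70. Slc1a2, a glutamate transporter, was at 551 and 54.4 CPM in hypoxic cells, against 166 and 45.4 CPM (0.99 ± 0.24, adjusted p 0.00236), and Fgfr3, Clu and Sox9 were higher by 1.14 ± 0.30, 0.92 ± 0.23 and 0.81 ± 0.24. Cartilage matrix markers gave 1 higher and 2 lower of 10. Mgp was at 97.5 and 1377 CPM in hypoxic cells, against 145 and 144 CPM (1.42 ± 0.43, adjusted p 0.0316), so that its direction differed between the tumours. Col2a1 likewise was at 14.8 and 342 CPM, against 47.2 and 125 CPM, and did not pass.

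Each cell was also placed in the 1 of 6 marker lists with its highest mean relative level, which sorts cells along ranges rather than into types. In tumour 1 the wide intervals of the hypoxic cells took in the low-sum share of each list. Oligodendrocyte progenitor was the leading list of 38.2% (95% interval 22.2 to 56.4%), against 29.0%, and astrocyte and radial glia of 26.5% (12.9 to 44.4%), against 18.9%. In tumour 2 cartilage matrix led in 43.3% of hypoxic cells (33.6 to 53.3%), against 22.2% of low-sum cells, and astrocyte and radial glia in 26.9% (18.7 to 36.5%), against 14.1%. Oligodendrocyte progenitor led in 12.5% (6.83 to 20.4%), against 30.4%, and committed progenitor in 4.81% (1.58 to 10.9%), against 13.8%. The top pair of lists lay within 10% of each other in 17.6% of hypoxic cells of tumour 1 and 10.6% of tumour 2.

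**Figure D4:**
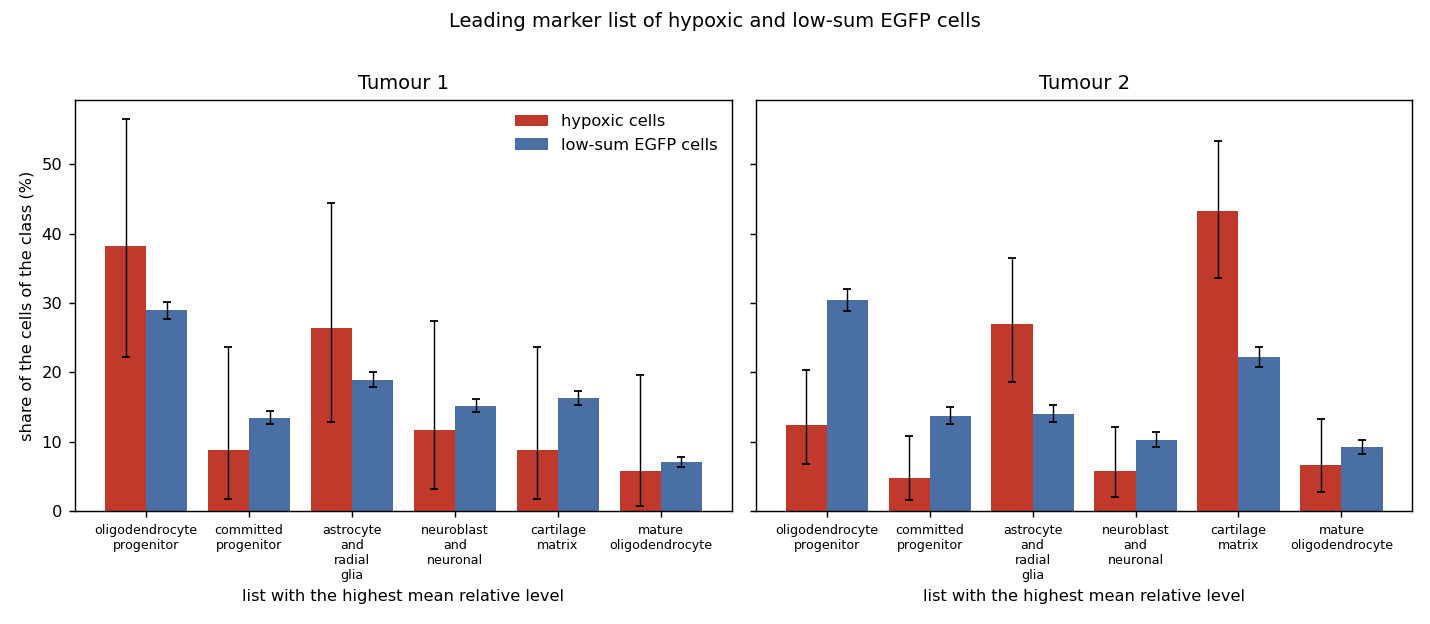
Share of hypoxic cells (red) and low-sum EGFP cells (blue) whose leading marker list is the one named on the axis, in tumour 1 and tumour 2, with exact 95% binomial intervals for counting error. In tumour 2 cartilage matrix leads in 43.3% of hypoxic and 22.2% of low-sum cells and oligodendrocyte progenitor in 12.5% and 30.4%, while in tumour 1 the intervals of the 34 hypoxic cells reach the low-sum shares.

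Hypoxic and low-sum cells were then compared within these groups. In tumour 2 Slc2a1 was at 786 CPM in the 45 hypoxic cells led by cartilage matrix, against 63.4 CPM in the low-sum cells led by it, at 568 CPM in the 28 led by astrocyte and radial glia, against 21.6 CPM, and at 149 CPM in the 13 led by oligodendrocyte progenitor, against 21.7 CPM. Car9 was at 369 CPM, against 3.63 CPM, at 160.5 CPM, against 1.75 CPM, and at 52.3 CPM, against 0.923 CPM, in the same order. Of these 3 groups the one led by cartilage matrix had the highest levels of both genes. In the remaining 3 groups of tumour 2, of 5, 6 and 7 hypoxic cells, no Car9 UMI was found, against 1.11, 1.61 and 1.07 CPM in the low-sum cells led by committed progenitor, neuroblast and mature oligodendrocyte markers, and so few cells do not set a level. In tumour 1 the 13 hypoxic cells led by oligodendrocyte progenitor had 62.7 CPM of Slc2a1, against 5.26 CPM, and 1364 CPM of Ldha, against 244 CPM. The 9 led by astrocyte and radial glia had 167 CPM of Slc2a1, against 12.8 CPM, but 224 CPM of Ldha, against 197 CPM, so the difference in Ldha was small there.

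Levels of genes the rule did not use were also set out along the sum, as a description. In tumour 2 the EGFP cells were binned at a sum under 1, 1 to 5, 5 to 10, 10 to 20 and 20 or more per 10000, with 3255, 1150, 67, 27 and 10 cells. Slc2a1 was at 33.2, 65.2, 440.0, 723 and 1201 CPM in these bins, Bnip3 at 27.2, 79.2, 404, 737 and 1048 CPM, and Mt1 at 1184, 1753, 4299, 5102 and 7153 CPM. The intermediate cells between the classes therefore already lay above the low-sum cells at all 3 genes. Ldha reached its plateau early, at 429, 666, 1778, 1845 and 1463 CPM, and Car9 was at 1.88, 20.3, 165, 344 and 317 CPM. The last bin of 10 cells is thin.

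In tumour 1 the bins held 5229, 1222, 23, 10 and 1 cells. Slc2a1 was at 9.03, 21.6, 244 and 174 CPM in the first 4 bins, Bnip3 at 19.6, 30.8, 166 and 196 CPM and Ldha at 228, 316, 848 and 807 CPM. Car9 was at 0.121, 0.733, 23.8 and 0 CPM, and Mt1 at 518, 844, 1057 and 437 CPM, which in the fourth bin is below the low-sum level. The step from the second to the third bin was the largest increase of the first 4 bins for Slc2a1, Bnip3, Ldha and Car9, and the fourth bin rests on 10 cells. With cells of other types left out, Slc2a1 was at 6.67, 12.4, 155 and 69.7 CPM.

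**Figure D5:**
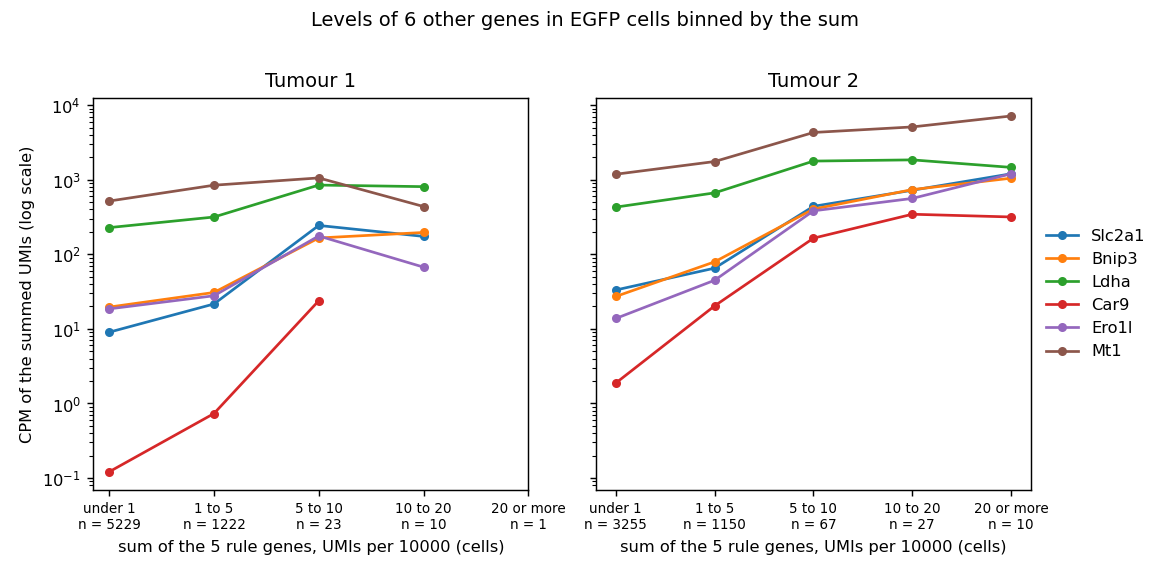
CPM (log axis) of 6 genes the rule did not use in EGFP cells binned by the summed UMIs of the 5 rule genes per 10000, with the number of cells in each bin under the axis, for tumour 1 and tumour 2. In tumour 2 Slc2a1 climbs over the bins to 1201 CPM, against 33.2 CPM in the lowest bin; in tumour 1 the bin of 1 cell is not drawn and Car9 has no UMI in the bin of 10 to 20.

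The 15 genes with the largest increases were taken by the naming rule from 367 that met it. Slc16a3, Slc2a1, Ero1l, Apln, Fn1, Ndufa4l2 and Ctgf (Ccn2, a matrix-associated growth regulator) were higher with and without cells of other types. Of the Ctgf UMIs in hypoxic cells, 55.2% and 59.4% lay in 1 cell of each tumour. In tumour 1 Ctgf was at 92.2 CPM in all hypoxic cells and at 12.2 CPM without cells of other types. Cldn5 and Flt1 are endothelial genes that served to leave cells out, and Ctla2a, Slco1c1, Ifitm1 and Apold1 lost their calls without those cells. Ctla2a was at 1259 and 94.8 CPM in hypoxic cells, against 5.32 and 10.2 CPM, but at 4.87 and 5.58 CPM, against 2.37 and 8.30 CPM, without cells of other types.

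The top-ranked gene was Lcn2, a secreted iron-scavenging protein, at 83.7 and 869 CPM in hypoxic cells, against 1.01 and 13.7 CPM (6.11 ± 0.25). Few cells carried it: 94.9% of its UMIs in tumour 1 and 80.4% in tumour 2 were in 1 cell each. The small heat shock protein gene Hspb1 was similar, with 76.5% and 68.4% of its UMIs in 1 cell of each tumour, and in tumour 1 it was at 2.44 CPM, against 13.7 CPM, without cells of other types. By contrast the cell with most Slc2a1 held 29.8% and 8.42% of its UMIs, and that with most Bnip3 18.8% and 5.57%.

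The 10 genes with the largest decreases included Bcas1 and Gpr17, given above. Mag and Mbp, genes of mature myelin, were lower by -3.40 ± 0.40 and -1.76 ± 0.22, and low-sum cells held more oligodendrocyte-marked cells (232 and 135, against 0 and 0 hypoxic cells). Without cells of other types, which also leaves out vascular, immune and very deep cells, Mag lost its call and Mbp was at 24.4 and 133 CPM in hypoxic cells, against 73.4 and 189 CPM. Mag itself served to leave cells out, so its lost call cannot be read apart from that limit. Chn2, Bfsp2, Lect1 (Cnmd, chondromodulin), Traf4 and Dmrtb1 were lower in both versions, and Tubb4a lost its call without cells of other types. Traf4 was at 78.4 and 36.9 CPM, against 206 and 127 CPM (-1.62 ± 0.22).

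None of 18 interferon-response genes passed with all cells (median -0.43), and 1 was above and 1 below in both tumours. The summed list went opposite ways: 10455 CPM in hypoxic cells of tumour 1, against 7471 CPM, and 6381 CPM in tumour 2, against 12263 CPM. Without cells of other types it was at 9154 CPM, against 7242.5 CPM, and at 5891 CPM, against 12204 CPM, and 6 genes were lower. Isg15 was then at 82.8 and 232 CPM in hypoxic cells, against 118 and 655 CPM (-1.11 ± 0.25, adjusted p 0.000471). Cxcl10, a chemokine that draws T cells, was at 280.1 CPM in hypoxic cells of tumour 1, against 195 CPM, and at 118 CPM in tumour 2, against 701 CPM (-1.09 ± 0.26), so that its direction differed between tumours. Of 17 chemokine, cytokine and immune ligand genes 4 were higher and 1 lower. Mif, a cytokine, was at 1449 and 3182 CPM, against 873 and 1669.7 CPM (0.79 ± 0.18), and kept its call without cells of other types, while Tgfb1 and Cxcl1 did not.

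As a description that needs no shared spread, genes were counted that differed at least 2-fold in the same direction in both tumours with at least 10 CPM in the higher class of each. Of 7963 genes with that level 247 were higher in hypoxic cells (3.1%) and 72 lower (0.904%). With the other types left out, 148 of 7785 were higher (1.9%) and 80 lower (1.03%). Slc2a1, Bnip3, Tpi1, Gpi1, Ldha, P4ha1 and Ero1l were 2-fold or more higher in hypoxic cells of both tumours in both versions.

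The tumours are set side by side as values with no test. Of the glycolysis genes together the hypoxic sum held 8594 CPM in tumour 1, against 3045 CPM in low-sum cells, and 22648 CPM in tumour 2, against 5289.8 CPM. Egln1, Ndrg1 and Mt1 stood further above the low-sum level in tumour 2, as the values above show. The hypoxic levels of Vegfa and Pdk1 were higher in tumour 1, but so were their low-sum levels. These were 11.3 and 8.32 CPM for Vegfa and 10.4 and 3.66 CPM for Pdk1 in tumours 1 and 2. EGFP itself was lower in the hypoxic cells of tumour 2, where 62.5% had under 50 EGFP UMIs per 10000, against 41.8% of low-sum cells, and in tumour 1 the shares were 20.6% and 36.3%. A limit of 50 for both classes gave 583 higher and 215 lower genes.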

How the data were processed

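Single-cell RNA libraries of 2 NPCTKO tumours were analysed, each from 1 animal, made per the methods by dissection, enzymatic digestion and the 10x 3′ kit V2. The deposited values are UMI counts per gene and barcode, not normalized, which the authors made with Cell Ranger 4.0.0 on mm10 (GRCm38) and took into Seurat, per the submitters' processing notes. The files held 14302 and 18596 barcodes with 282961884 and 295366782 UMIs, and 12854 and 15555 passed the limits on genes and mitochondrial share. No doublet caller was run, and limits on the markers of other types and on 50000 UMIs were alternatives in its place. A doublet below these limits would remain.

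Cells of 1 library are not replicates, so UMIs were summed per tumour and class. The 4 sums were filtered (filterByExpr), scaled (TMM) and tested with edgeR 4.0.16 in R 4.3.3, with tumour as a block and Benjamini-Hochberg adjustment over all genes. The fit and the adjustment ran on 15173 mouse genes, with rule genes and genes of the other limits among them. Results of the rule genes and of the other limits were then set aside, which left 15159 genes. Transgenes were not in the fit. The standard errors after ± were derived from the test, as the size of the log2 fold change over the square root of the quasi-likelihood F. CPM are UMIs per 1000000 mouse-gene UMIs of a sum. DESeq2 1.42.0 was an alternative. Python 3.11.15, numpy 2.4.6, scipy 1.17.1, pandas 2.3.3 and matplotlib 3.10.9 served the rest. Intervals on shares are exact Clopper-Pearson at 95% and, like CPM, cover counting error only. Tested on simulated data for this comparison (15103 genes), the test called 100% of genes raised 4-fold, 26% of those raised 2-fold and 0.0671% of unchanged genes. The simulation gave all genes the same spread, taken from the main fit, and did not model UMIs held mostly by 1 cell. These rates therefore cannot be taken over to the real sums. Classes of both kinds came from the same 2 animals, which is where the pairing of the sums comes from.

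Named genes were the 5 rule genes, the 15 largest increases and 10 largest decreases with at least 20 CPM in the higher class of each tumour and the same direction in both, and up to 6 members of each gene list. Where more members are named, and for the metallothioneins, genes were chosen after their values were seen. The class and all lists were chosen with earlier results of these data known. A member of the secreted-signal gene list is not reported here by name.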

Additional observations from a re-analysis of the deposited data

How the results depend on the processing

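The tumours pair the sums, since both classes come from each animal. With no replicate block 0 genes were higher and 0 lower (716 at an unadjusted p under 0.05), and likewise 0 and 0 without cells of other types (453). Higher and lower calls were 67 and 0 with low-sum cells matched on UMIs, 202 and 28 matched on UMIs and state, 313 and 185 at a sum of 10 or more, 43 and 21 without cells holding 2 UMIs of other types, and 466 and 94 with DESeq2. Lower calls were 198 at 10000 UMIs or more, 205 under 10% mitochondrial and 215 at 50 EGFP UMIs per 10000 or more. Without cells of other types, a choice made after seeing the data as was the EGFP limit, they were 376 and 284, 56 and 6 when also matched, and 153 and 19 with DESeq2. The cause of these differences was not tested. Genes 2-fold apart were 148 higher without cells of other types, and with 1 tumour alone 591 to 888 higher and 371 to 412 lower.

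The share of hypoxic cells was 0.118% and 0.380% at a sum of 10 or more, and in tumour 2 it was 1.61% at 10000 UMIs or more and 0.754% at the higher EGFP limit. Without cells of other types mature oligodendrocyte led in 0% of hypoxic cells of tumour 1. In low-sum cells of tumour 1 it led then in 4.86%, oligodendrocyte progenitor in 31.2%, committed progenitor in 12.4% and neuroblast in 16.3%, and in those of tumour 2 the first 3 led in 7.37%, 32.8% and 12.6%. At 10000 UMIs or more, neuroblast led in 16.3% and cartilage matrix in 17.4% of low-sum cells of tumour 1.

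Of 112 named genes tested, 106 kept their direction and side of the threshold with DESeq2, 111 with no filter on low counts, 82 with matching on UMIs and state, 82 without cells of other types and 23 with no replicate block. The number was 53 with matching on UMIs, 48 without cells holding 2 UMIs of other types, and 55 without cells of other types when also matched. Some of the 112 genes were not tested in the matched versions or with cells left out for the markers of other types. Some genes turned direction. Without cells of other types the log2 fold change was -0.18 for Angpt2 (-0.23 with no replicate block, -0.12 with DESeq2), -0.35 for Apold1 (-0.31 with no block), -0.87 for Cldn5 (-0.80) and -0.19 for Ctla2a (-0.054). Cldn5 itself served to leave cells out, so its turn follows from that limit. Without cells holding 2 UMIs of other types, which left 11 and 7 hypoxic cells, it was -1.42 for Cd44, -0.62 for Ctla2a, 0.24 for Dmrtb1, -2.85 for Hspb1, -1.18 for Lcn2 and -1.01 for Lgals1. Cxcl1 was at -2.82 at a sum of 10 or more and Mgp ran between -0.57 and 3.25 when either tumour was left out. The 4 sums come from 2 animals, so p-values cover these libraries only and rest largely or wholly on a spread pooled over genes. The 34 hypoxic cells in tumour 1 leave the level of a low gene to 1 or a few cells.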
